A study of Mus musculus with 4 samples.

Results

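The oncofetal RNA-binding and HMGA genes Igf2bp1, Igf2bp2, Igf2bp3, Lin28a, Lin28b, Hmga1 and Hmga2 were followed on 4 expression arrays of mouse mammary cells. A probe set, a group of short probes that reads one transcript, was taken as a member when the array annotation gave it a single gene symbol from this list. Of the 7 genes, 5 had at least 1 such probe set, giving 17 of the 45037 probe sets tested and 5 of the 18193 genes that had a single-symbol probe set. Igf2bp2 and Hmga1 had none in the annotation used here, so no level is given for them. The genes were chosen by name with their values on these same arrays known, and the difference between clones was in view, so it is given as a description without a test.

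The arrays compared Deaf-1, a transcription factor that binds TTCG-containing DNA, with an empty retrovirus in cells that lack the endogenous gene. Deaf-1 -/- mammary epithelial cells had been immortalised with the E6 and E7 oncogenes of human papillomavirus 16 and cloned, and clones E1 and C1 were used. Each clone was infected either with retrovirus carrying Deaf-1 (2 arrays, E1 and C1) or with the empty control retrovirus (2 arrays, E1 and C1), and RNA was taken after 48 h of puromycin selection. Every culture therefore shared the Deaf-1 deletion, the viral oncogenes and the drug, and each clone was represented by 1 array per retrovirus, so p-values measure only the spread between these cultures.

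As a class, oncofetal genes are active in embryonic and fetal tissues, are low or silent in many adult tissues, and reappear in many tumours. Members can differ in this, and adult tissues were not measured here. The IGF2BP proteins bind mRNAs and regulate their stability, localisation and translation, whereas HMGA proteins bind AT-rich DNA through AT hooks and alter chromatin structure. The LIN28 proteins block maturation of let-7 microRNAs, and let-7 in turn represses mRNAs that include Hmga2, Lin28b and Igf2bp family members.

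The let-7 sequences are shown because the seed they share, in capitals (bases 2 to 8), defines the targets that link the 3 families. All 9 mature let-7 and miR-98 names in RefSeq (build GRCm38.p6) carried the same seed, and 3 stand for them here.
mmu-let-7a-5p: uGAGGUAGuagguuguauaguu
mmu-let-7g-5p: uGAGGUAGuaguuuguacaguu
mmu-miR-98-5p: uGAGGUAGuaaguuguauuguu
In GRCm38.p6, let-7a-5p lies on the minus strand at chr13:48538239-48538260, let-7g-5p on the plus strand at chr9:106178846-106178867 and miR-98-5p on the plus strand at chrX:151913229-151913250. The arrays gave no let-7 level in these data.

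The promoters of Igf2bp3, the member with the largest difference between the clones, and of Hmga2, which was present in both clones at similar levels, are set side by side as RefSeq gives them, from 250 bases before to 50 bases after the annotated start. Both genes lie on the minus strand in GRCm38.p6. Igf2bp3 spans chr6:49085218-49215469 (promoter window chr6:49214905-49215204) and Hmga2 spans chr10:120361268-120476469 (promoter window chr10:120476420-120476719). The Igf2bp3 window lies wholly inside the gene's span, so its start is not the outermost one, whereas the Hmga2 window runs past the gene's upstream end. The windows are thus not alike in position. Capitals mark CACGTG, the palindromic E-box read by MYC and related factors.
Igf2bp3: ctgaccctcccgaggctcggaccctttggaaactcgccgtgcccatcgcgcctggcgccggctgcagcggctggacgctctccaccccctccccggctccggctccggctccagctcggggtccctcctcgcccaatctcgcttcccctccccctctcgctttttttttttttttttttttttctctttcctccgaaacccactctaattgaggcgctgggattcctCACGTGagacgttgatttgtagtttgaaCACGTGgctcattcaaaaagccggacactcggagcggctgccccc
Hmga2: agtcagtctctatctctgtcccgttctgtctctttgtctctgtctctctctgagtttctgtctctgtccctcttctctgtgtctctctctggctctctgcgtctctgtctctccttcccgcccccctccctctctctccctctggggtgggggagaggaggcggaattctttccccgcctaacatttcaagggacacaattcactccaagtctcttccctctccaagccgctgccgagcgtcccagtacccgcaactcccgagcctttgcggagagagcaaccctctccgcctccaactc
Igf2bp3 held CACGTG at 2 places, beginning at positions -23 and 6 counted from the start, and Hmga2 held none. Among the other members with a window, Lin28b held it at position -49, and Lin28a, Igf2bp2 and Hmga1 held none. Over the 32851 promoter windows of the same length in the reference, 7.15% held CACGTG and 0.594% held it at least 2 times. TTCG, searched on both strands, matched 1 time in the Igf2bp3 window and 0 times in the Hmga2 window, and 44.7% of all windows held it. Igf2bp3 had 25 CG dinucleotides and Hmga2 had 12, against a median of 7 over all windows, of which 18.4% had 25 or more. Igf2bp2 had 47, Hmga1 40 and 38 in its windows, Lin28a 10 and Lin28b 8. These matches describe the letters of the windows only.

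Expression values were deposited as log2 units after robust multi-array averaging (RMA), so a difference of 1 is a 2-fold change. They ran from 1.75 to 13.63, with array medians between 3.77 and 3.87. A level of 3.83, the 95th percentile of the means of 44 olfactory receptor probe sets, was taken as background, and levels of different probe sets are not compared with each other because probes differ in brightness. Deaf1 itself (1448446_at) had log2 values of 6.25 (E1) and 6.73 (C1) with Deaf-1 retrovirus, against 4.91 (E1) and 5.01 (C1) with control, a difference of 1.53 (SE 0.21, 95% interval 0.96 to 2.10), and it was among the 5 probe sets with an unadjusted p under 0.01 in limma. Its signal in the Deaf-1-null control cells was above background on both arrays.

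Igf2bp3, an RNA-binding protein typical of fetal tissue and many carcinomas, differed most between the clones. All 6 of its probe sets were higher on both E1 arrays than on both C1 arrays, whichever retrovirus was present. Over all probe sets, 22.8% were higher on both E1 arrays than on both C1 arrays. The brightest Igf2bp3 probe set by mean, 1433731_at, had log2 values of 6.01 with Deaf-1 and 6.12 with control in E1, and of 5.11 with Deaf-1 and 5.13 with control in C1. The difference was 0.95 (1.93-fold), 0.90 with Deaf-1 and 0.99 with control, just under 1. In this probe set all 4 arrays were above background, so the transcript was registered in both clones.

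The other Igf2bp3 probe sets gave larger differences. Probe set 1422610_s_at read 7.12 with Deaf-1 and 7.11 with control in E1, and 3.86 with Deaf-1 and 3.95 with control in C1. The means were 7.12 ± 0.0086 in E1 and 3.91 ± 0.060 in C1 (SD, n = 2 arrays each), a difference of 3.21 or 9.26-fold, the 22nd highest of the 45037. In C1 both values were only just above background. The 2 arrays of a clone are its Deaf-1 and control cultures, so this SD is the spread between them and not between replicate cultures.

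Probe set 1422611_s_at read 6.17 with Deaf-1 and 6.66 with control in E1, and 3.72 with Deaf-1 and 3.09 with control in C1. Probe set 1453957_a_at read 4.97 with Deaf-1 and 5.0 with control in E1, and 3.13 with Deaf-1 and 2.83 with control in C1. In both cases E1 was above background and C1 below it, so the fold is a lower bound, the E1 mean taken against background. It was at least 6.02-fold higher in E1 for 1422611_s_at and at least 2.23-fold higher for 1453957_a_at.

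Probe set 1433732_x_at was above background on all arrays, with values of 6.02 with Deaf-1 and 6.57 with control in E1, and of 5.03 with Deaf-1 and 4.68 with control in C1. Its difference was 1.44, 0.99 with Deaf-1 and 1.89 with control. Probe set 1450687_at was above background on 1 array, control E1, at 4.04, against 3.36 with Deaf-1 in E1, 2.46 with Deaf-1 in C1 and 2.36 with control in C1. The suffixes _s_at and _x_at mark probes that may also read other transcripts, and the direction was the same in the 3 probe sets without them.

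By a rule of at least 1 in the same direction with both retroviruses, 3 of the 6 Igf2bp3 probe sets were higher in E1 (1422610_s_at, 1422611_s_at and 1453957_a_at), and no probe set of the other genes was higher or lower. Among all probe sets, 0.864% met this rule as higher in E1 and 0.775% as lower. These are bulk cultures, in which a smaller number of expressing cells and less RNA per cell cannot be told apart.

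**Figure D1:**
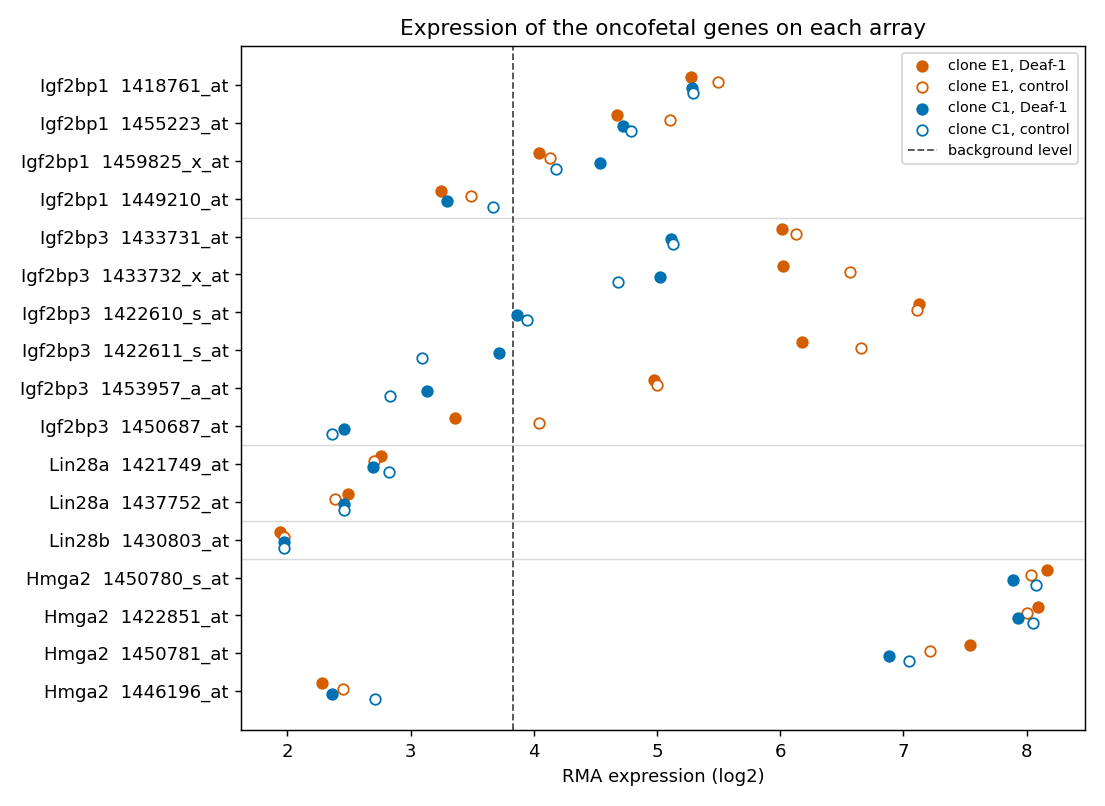
RMA expression (log2, horizontal axis) of all 17 probe sets, 1 point per array, with clone E1 in orange, clone C1 in blue, Deaf-1 retrovirus filled and control open. The dashed line is the background level of 3.83. The Igf2bp3 rows separate by clone, the Hmga2 points of 3 probe sets lie far above background in both clones, and Lin28a and Lin28b lie below it.

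Igf2bp1, a paralogue of Igf2bp3 that binds Myc and Actb mRNA, did not share its clone pattern. The leading probe set, 1418761_at, read 5.28 with Deaf-1 and 5.49 with control in E1, and 5.29 with both retroviruses in C1. These values were above background on every array, and the clone ranges overlapped, with a mean difference of 0.098. Probe set 1455223_at (4.67 with Deaf-1 and 5.11 with control in E1, 4.72 with Deaf-1 and 4.79 with control in C1) likewise overlapped between clones, with a difference of 0.13. Probe set 1459825_x_at, by contrast, was lower on both E1 arrays, at 4.04 with Deaf-1 and 4.13 with control, than in C1, at 4.54 with Deaf-1 and 4.18 with control. The fourth, 1449210_at, was below background on every array, between 3.25 and 3.67.

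Lin28a and Lin28b, the 2 inhibitors of let-7 maturation, were not above background on any array. Lin28a values lay between 2.70 and 2.82 for 1421749_at and between 2.38 and 2.49 for 1437752_at. Lin28b, with 1 probe set (1430803_at), read 1.94 with Deaf-1 and 1.97 with control in E1, and 1.97 with both retroviruses in C1. At these signals neither transcript was detectable, which does not show that it was absent.

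Hmga2, which is abundant in embryonic mesenchyme, was well above background in both clones. Its leading probe set, 1450780_s_at, read 8.17 with Deaf-1 and 8.04 with control in E1, and 7.89 with Deaf-1 and 8.07 with control in C1. Control C1 lay above control E1 and the clone ranges overlapped, with a mean difference of 0.12. Probe set 1422851_at gave 8.09 with Deaf-1 and 8.0 with control in E1, and 7.93 with Deaf-1 and 8.05 with control in C1, a difference of 0.059.

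The clones did separate at another Hmga2 probe set, 1450781_at, with 7.54 with Deaf-1 and 7.22 with control in E1, and 6.88 with Deaf-1 and 7.04 with control in C1. That difference, 0.42 or 1.33-fold, was well below that of any Igf2bp3 probe set. The fourth, 1446196_at, was below background throughout, between 2.28 and 2.71. Of all 17 probe sets, 9 were above background on all 4 arrays and 5 on none, and their median clone difference was 0.12, against 0.0045 over all probe sets.

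**Figure D2:**
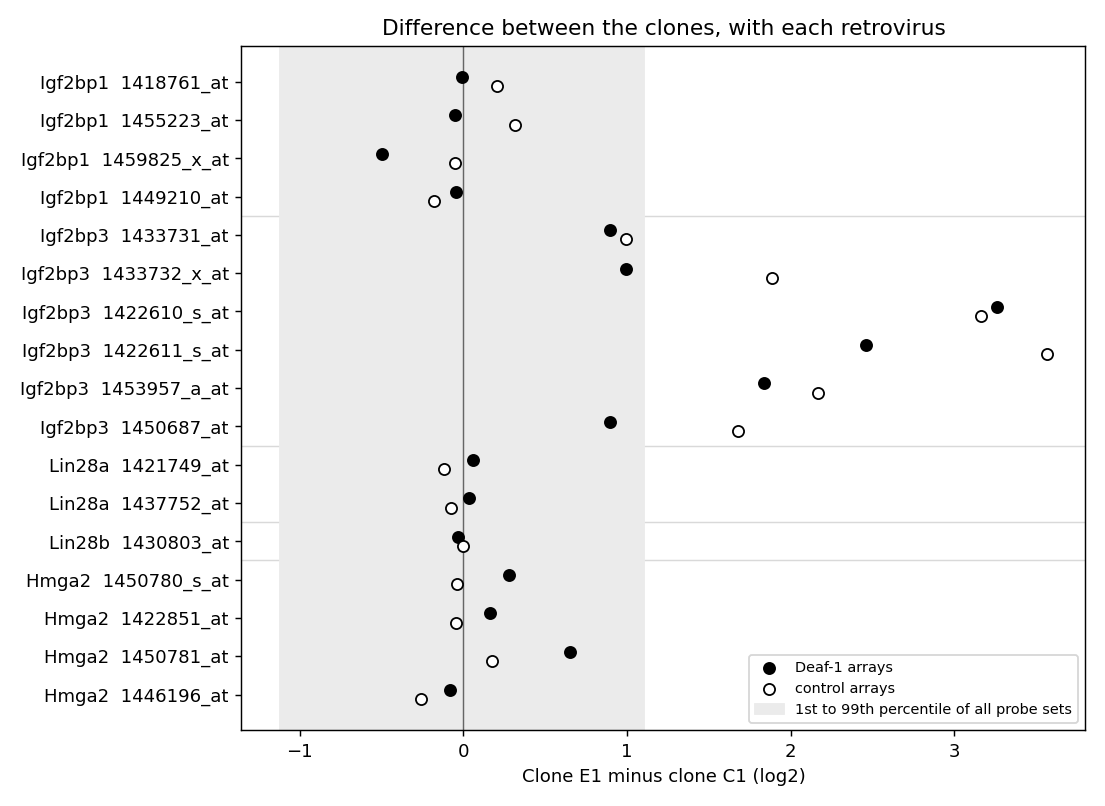
Difference of clone E1 minus clone C1 (log2) for each probe set, filled points for the Deaf-1 arrays and open points for the control arrays, with grey shading from the 1st to the 99th percentile of all probe sets (-1.12 to 1.10). The Igf2bp3 points run from 0.90 to 3.57, and all points of the other genes lie inside the shading.

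Re-expression of Deaf-1 changed none of the genes detectably. In limma fits over all 45037 probe sets, 0 of the 17 member probe sets passed an adjusted p of 0.05 (0% of all probe sets), 0 passed an unadjusted p of 0.01 (0.0111% of all) and 0 passed an unadjusted p of 0.05 (0.433% of all). With clone as a block, the counts were again 0 of 17 at each threshold, against 0%, 0.0244% and 0.875% of all probe sets. Deaf1 itself passed an unadjusted p of 0.01 in both fits but an adjusted p of 0.05 in neither. The adjusted counts therefore cannot show a lack of response in the members. The median difference of Deaf-1 minus control was -0.036 over the members and -0.0043 over all probe sets.

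For the leading Igf2bp3 probe set, Deaf-1 minus control was -0.11 in E1 and -0.019 in C1, a mean of -0.066 (SE 0.465, 95% interval -1.30 to 1.16). Because the clones differ, this interval is wide, and the blocked fit narrowed it to -0.46 to 0.33. At 1422610_s_at the difference was 0.012 in E1 and -0.084 in C1, and the blocked interval was -0.43 to 0.36. For the 4 remaining Igf2bp3 probe sets it was negative in E1 and positive in C1, with the widest gap at 1422611_s_at, -0.48 in E1 and 0.63 in C1. Over all probe sets, 58.9% differed in opposite directions in the clones.

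Hmga2 gave no call either. Its leading probe set differed by 0.13 in E1 and -0.19 in C1, a mean of -0.029 with a 95% interval of -0.48 to 0.42. An interval of this width does not show equality with control.

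Igf2bp1 was the gene whose probe sets most often lay lower with Deaf-1. Both Deaf-1 arrays were below both control arrays in 3 of its 4 probe sets, and in 9.41% of all probe sets. The differences were -0.11 at 1418761_at (95% interval -0.52 to 0.30), -0.25 at 1455223_at (-0.72 to 0.21) and -0.31 at 1449210_at (-0.72 to 0.093), the last below background on every array. The fourth probe set, 1459825_x_at, differed by -0.086 in E1 and 0.36 in C1. In the 2 lower probe sets above background most of the difference lay in E1. It was -0.22 in E1 and -0.0040 in C1 at 1418761_at, and -0.43 in E1 and -0.069 in C1 at 1455223_at. At 1449210_at it was -0.24 in E1 and -0.38 in C1. None of the 3 lower probe sets passed the limma test, with an adjusted p of 1 for each, a test that Deaf1 itself did not pass after adjustment.

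**Figure D3:**
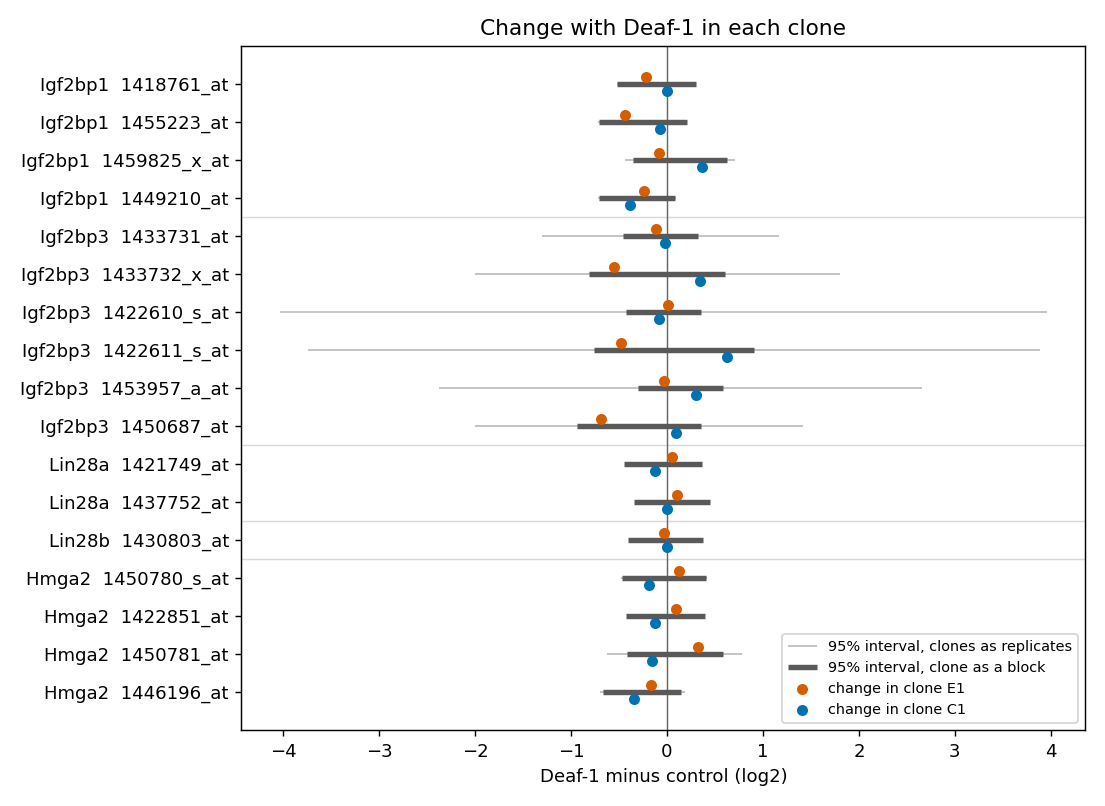
Difference of Deaf-1 minus control (log2) for each probe set, with points for each clone, thin lines for the 95% interval of the fit without clone and thick lines for the fit with clone as a block. Both intervals include 0 for all 17 probe sets, and the thin lines are widest for Igf2bp3.

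Genes whose 4-array profile lay closest to a member were found among 21874 probe sets, by the distance between mean-centred log2 values. For Igf2bp3 (1433731_at, range 1.01 over the arrays) they were Tmbim1 (distance 0.040), Fat1 (0.041) and Aen (0.045), with clone differences of 0.91, 0.92 and 0.93. For Hmga2 (1450780_s_at, range 0.28) they were 6030468B19Rik (0.020), Tbx5 (0.022) and Gamt (0.023). For Igf2bp1 (1418761_at, range 0.22) they were Mtpap, Keap1 and Paqr4, each at a distance of 0.019. With 4 arrays, such likeness only describes the profiles.

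The pathway around the members was read from 5 lists, 1 leading probe set per gene. No gene of any list passed an unadjusted p of 0.05 for Deaf-1 in the limma fit without clone, and the adjusted count was 0 in both fits. With the clone block, 0 list genes passed an unadjusted p of 0.01, against 8 of all 18193 genes. At an unadjusted p of 0.05, 145 of the 18193 genes passed. From the lists 2 passed it, 1 of 18 let-7 and Lin28 pathway factors and 1 of 21 measured let-7 target genes. These were Dis3l2, with a difference of 0.44 (95% interval 0.00046 to 0.88), and Arid3b, an AT-rich DNA-binding factor named after its value was seen, at -0.46 (-0.90 to -0.017) and above background on 1 array. For the clones, the rule of at least 1 with both retroviruses was met as higher in E1 by 1.22% of all genes and as lower by 1.03%, and the median over all genes was 0.016.

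Of the 18 let-7 and Lin28 pathway factors, 0 were higher and 1 was lower in E1, with a median of 0.12. The lower one was Msi2, an RNA-binding protein of stem and progenitor cells, at 5.07 with Deaf-1 and 5.14 with control in E1, and at 6.45 with both retroviruses in C1. Dgcr8, the partner of Drosha in microRNA processing, differed by -0.60, and Dis3l2, the exonuclease that degrades uridylated pre-let-7, by 0.50.

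Of the 24 let-7 target genes, 21 were measured, 1 was higher in E1 and 0 were lower, with a median of -0.088. Ccnd1, which encodes cyclin D1, read 6.86 with Deaf-1 and 7.04 with control in E1, and 4.54 with Deaf-1 and 4.53 with control in C1. That is a difference of 2.42 and separates the clones completely. Thbs1, a matricellular glycoprotein, differed by 0.84 and Bach1, a heme-regulated repressor, by -0.70.

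Among 14 measured IGF2BP client mRNAs and protein partners, 0 were higher or lower by the rule, with a median of 0.10. The largest differences were 0.61 for Hnrnpu, a nuclear RNA-binding protein, -0.58 for Cd44, a hyaluronan receptor whose mRNA IGF2BPs bind, and 0.36 for the helicase Dhx9. The 12 measured high mobility group proteins and HMGA partners also gave 0 in each direction, with a median of 0.13. Snai1 and Snai2, repressors of epithelial genes, differed in opposite directions, by 0.80 and -0.68, and Hmgb3 by 0.78.

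Of 8 measured other oncofetal genes, 1 was higher and 1 lower in E1, with a median of 0.15. Gpc3, which encodes the fetal heparan sulfate proteoglycan glypican 3, read 7.48 with Deaf-1 and 7.55 with control in E1, and 3.83 with Deaf-1 and 3.81 with control in C1, at the background. Dlk1, an imprinted fetal regulator of differentiation, ran the other way, at 7.02 with Deaf-1 and 7.28 with control in E1, and at 9.63 with Deaf-1 and 9.59 with control in C1. Peg10, an imprinted placental gene, differed by 0.46. The oncofetal genes thus did not share 1 direction between the clones.

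**Figure D4:**
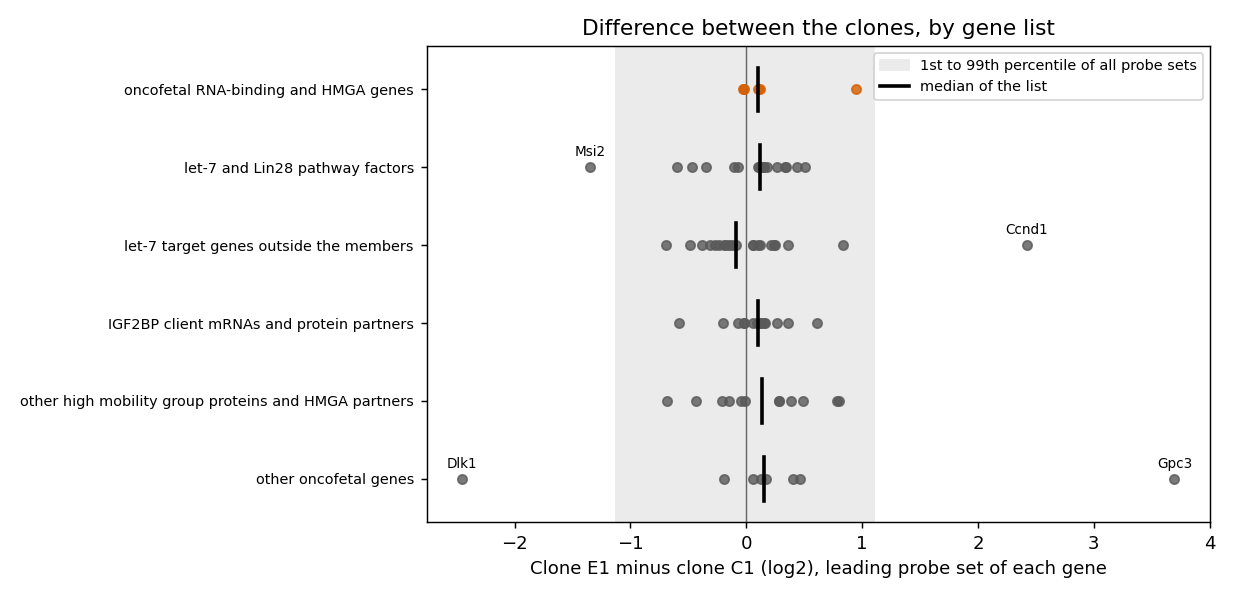
Difference of clone E1 minus clone C1 (log2) for the leading probe set of each gene, by list, with black bars at the list medians and grey shading from the 1st to the 99th percentile of all probe sets (-1.12 to 1.10). Ccnd1, Gpc3, Msi2 and Dlk1 lie outside the shading.

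The labelled cell type was set against marker genes. Of 8 luminal and general epithelial markers, only Epcam and Krt19 had a mean above background, and Cdh1, Krt18 and Gata3 were below it on all arrays. Of 7 basal markers, 3 were above it by mean (Acta2, Trp63 and Krt5), and Krt14 was below it on all arrays. All 8 fibroblast and mesenchymal markers were above background in both clones. Most defining epithelial markers were thus below or near background in cells labelled mammary epithelial.

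Of the markers measured, only Krt7 and Fabp4 met the rule of at least 1 with both retroviruses, both in the direction of Igf2bp3, higher in E1. Krt7 read 4.41 with Deaf-1 and 4.10 with control in E1, and 2.92 with Deaf-1 and 2.86 with control in C1. Fabp4, a fatty-acid carrier of adipocytes and other cells, read 10.56 with Deaf-1 and 10.59 with control in E1, and 3.77 with Deaf-1 and 2.57 with control in C1. Both genes were below background in C1, and in E1 Krt7 was just above background and Fabp4 far above it. The other 3 adipocyte markers measured, Adipoq, Lep and Cidec, were below background on all arrays. Over the 8 luminal markers the median clone difference was 0.10. Epcam and Krt19, the only luminal markers with a mean above background, differed by -0.24 and -0.032. Of the 8, 4 were above background on both E1 arrays and 2 on both C1 arrays. Krt8 read 4.01 with Deaf-1 and 3.84 with control in E1, and 3.46 with Deaf-1 and 3.57 with control in C1. Its difference was 0.41, with E1 just above background and C1 below it. The summed linear signal of the 8 fibroblast markers was 42208 (Deaf-1) and 40271 (control) in E1, and 36107 (Deaf-1) and 35468 (control) in C1. That of the 8 luminal markers was 168 (Deaf-1) and 139 (control) in E1, and 134 (Deaf-1) and 159 (control) in C1. The sums of these lists are not compared with each other, because probes differ in brightness. Only 2 of the 8 luminal markers had a mean above background, so the luminal sum includes signal near or below it. Of 5 endothelial markers 2 had a mean above background, and of 4 immune markers 2. Pluripotency and germ cell markers, which often accompany Lin28a, had 1 of 6 above it (Dppa3), while Pou5f1, Nanog and Sox2 were below it on all arrays. The part of any of these in the Igf2bp3 difference was not tested.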

How the data were processed

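RNA from 4 cultures was hybridised to Affymetrix mouse expression arrays. The deposited values are log2 expression per probe set, made by the authors with RMA, and limma is also named in the submitters' processing notes, with versions not given in the sources used here. RMA scales the arrays to one distribution, so a shift of all genes would not be seen. Arrays carry no read depth, and precision is limited by having 4 of them. The table held 45101 rows, of which 64 control probe sets were left out, and 0 other value columns. Of the 45037 tested, 34945 had 1 gene symbol, 932 several and 9160 none in the GEO platform annotation. By gene ID, 34741 matched RefSeq (GRCm38.p6) and 0 symbols changed.

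Deaf-1 (n = 2) was compared with control (n = 2) with limma 3.58.1 in R 4.3.3 (lmFit and eBayes, two-sided, Benjamini-Hochberg adjustment over all 45037), with 2 residual and 2.56 prior degrees of freedom. Clone as a block (1 residual, 3.21 prior) was an alternative. Arrays with the same replicate number are the same clone, and their deviations from the group means correlated at 0.54. The others were median centring, quantile and cyclic loess normalization, filters on low values, an intensity trend, the mean over a gene's probe sets, and leaving out each array, without clone in the fit. The code was tested on simulated data.

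Named were all probe sets of the members (highest mean leading), the 3 genes of each pathway list with the largest clone difference, any list gene with p under 0.01, the 3 profiles nearest to each of the 3 most variable members above background, and Deaf1. The members and lists were chosen with earlier results of these data known. List genes without a single-symbol probe set in the annotation used here were left out. Promoters and microRNAs came from RefSeq tables, in which 6 of the 7 members had a promoter.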

Additional observations from a re-analysis of the deposited data

Results flagged for a closer look

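In 10 of the 17 member probe sets the Deaf-1 minus control difference was positive in one clone and negative in the other, as it was in 58.9% of all probe sets. With 1 array per clone and retrovirus, no replicate is left to test such a difference, and it was not tested. Each value below is the change in E1 minus the change in C1, in log2 units.

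Of the 6 Igf2bp3 probe sets, 5 were of this kind. The values were -1.11 at 1422611_s_at, -0.89 at 1433732_x_at, -0.78 at 1450687_at, -0.33 at 1453957_a_at and 0.096 at 1422610_s_at. In the first 4 of these the change was negative in E1 and positive in C1, and in the last the reverse. In 1450687_at 1 array and in 1422611_s_at and 1453957_a_at 2 arrays were above background.

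The 3 Hmga2 probe sets above background gave 0.48 (1450781_at), 0.32 (1450780_s_at) and 0.21 (1422851_at), positive in E1 and negative in C1. The value was -0.45 for Igf2bp1 at 1459825_x_at and 0.18 for Lin28a at 1421749_at, where every array was below background.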

How the results depend on the processing

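Of 149 alternative values, 126 did not turn sign and were counted as the same. For a Deaf-1 difference, this meant only that its unadjusted p stayed on the same side of 0.01, with no limit on its size. For a count it meant a ratio within a set limit, and for a clone difference a shift within the SD of its values with each retrovirus. With 1 array left out, a clone difference was simply that with the other retrovirus, which always lies within this SD. Those values were therefore bound to be counted as the same and are no check of stability. The sign turned in 6 Deaf-1 differences, and in 8 clone differences of Igf2bp1, Lin28a, Lin28b and Hmga2, none of which reached 1 in the data as deposited. No alternative gave a member probe set with an unadjusted p under 0.01, and the count with an adjusted p under 0.05 over all probe sets was 0 in each. The count over all probe sets with p under 0.01, 5 in the fit as reported, was 11 with clone as a replicate block, 2 among probe sets with a mean above background, 1 among those with a mean of at least 6, and 25 with an intensity trend. Leaving out 1 array gave 2 to 47 (47 without Deaf-1 C1, 15 without Deaf-1 E1, 3 without control C1, 2 without control E1). The cause was not tested.

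The Deaf-1 difference of Hmga2 was 0.0075 under cyclic loess and that of Lin28a 0.0088 as the mean over its probe sets, both reversed. Leaving out 1 array gave -0.56 to 0.43 for Igf2bp3 (0.38 without Deaf-1 C1, 0.43 without control E1), -0.17 to 0.11 for Hmga2 (0.11 without Deaf-1 C1) and -0.096 to 0.022 for Lin28a (0.022 without control C1). These fits leave out clone and set 1 array of a group against both of the other, so they carry the clone difference, and within the clones Igf2bp3 differed by -0.11 in E1 and -0.019 in C1. The clone difference of Igf2bp3 was 1.98 as the mean over its 6 probe sets. At its leading probe set it was 0.90 without a control array and 0.99 without a Deaf-1 array. These repeat its differences with Deaf-1 and with control given above, so they add no separate check. All 6 Igf2bp3 probe sets stayed higher in E1 under 3 other scalings (3.19 to 3.26 at 1422610_s_at). The clone difference of Lin28b was 0.0074 after quantile normalization and that of Igf2bp1 -0.038 as the mean over its probe sets. With 1 array left out it was as low as -0.0085 for Igf2bp1 and -0.037 for Hmga2 and as high as 0.059 for Lin28a. The filters on low values gave no value for Lin28a and Lin28b, and that at 6 gave one for Hmga2 alone. Signals near background limit the Lin28a and Lin28b values and the C1 values of Igf2bp3.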
